A study of Mus musculus with 9 samples.

Results

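The 10 genes described here are markers carried by macrophages in general (Adgre1, Csf1r, Cd68, Itgam, Cd14, Lyz2 and Tyrobp) and the 3 genes of the complement recognition protein C1q (C1qa, C1qb and C1qc). They were taken by name from the 52176 gene symbols of the deposited tables. The names were chosen with earlier results of these data known. A gene's level in a tumor was the FPKM of every row that named it, where FPKM is the number of fragments mapped to a gene, divided by the length of its transcripts and by the mapped fragments of the library.

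RNA was sequenced from whole orthotopic Hepa1-6 tumors, grown in the liver of C57BL/6 mice from a mouse hepatoma line, to compare tumors that did and did not respond to anti-PD-1 antibody. The 3 PBS-treated mice were the controls, and the other 6 mice received anti-PD-1 antibody, which blocks an inhibitory receptor of T cells. PBS or antibody was injected intraperitoneally every 4 days, 5 times in all. After treatment the 3 largest antibody-treated tumors were called nonresponsive and the 3 smallest responsive, and tumors between them were left out. The groups of treated tumors are therefore the ends of a range of tumor size, and their sizes and their response cannot be told apart. The tissue around each tumor was removed before RNA was extracted. Mice of all groups had the same strain and bore the same cell line, and the methods of the study describe young adult male mice for this model, although the labels give neither sex nor age.

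Macrophages take up and digest dead cells, microbes and debris, and depend on the growth factor receptor CSF1R for their survival. In the liver they include the resident Kupffer cells and cells that arise from blood monocytes, and in tumors both are often grouped as tumor-associated macrophages. C1q is the part of the first complement component that binds antibodies and dying cells. Unlike most complement proteins, which hepatocytes secrete, C1q is made mainly by macrophages and dendritic cells, and each molecule is built from equal numbers of A, B and C chains.

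Promoter windows of 5 of the 10 genes were taken from the RefSeq table of GRCm38.p6. For these genes a chromosome was left out of the search, so the table may hold windows of others. The 3 whose windows overlap no annotated exon are shown here, to set a C1q gene (C1qb) beside 2 general macrophage markers (Cd68 and Itgam). Each is the 250 bases before the annotated start, read 5′ to 3′ on the strand of the gene, with the letters GAGGAA or their reverse complement TTCCTC in capitals. GAGGAA is the core that the macrophage lineage factor PU.1, encoded by Spi1, can bind.
C1qb (GRCm38.p6 chr4:136886201-136886450, minus strand): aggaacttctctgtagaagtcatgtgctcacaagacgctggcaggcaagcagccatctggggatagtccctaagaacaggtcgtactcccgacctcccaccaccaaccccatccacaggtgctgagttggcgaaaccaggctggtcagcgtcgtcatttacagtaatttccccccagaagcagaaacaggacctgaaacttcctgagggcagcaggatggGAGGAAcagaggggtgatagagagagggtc
Cd68 (GRCm38.p6 chr11:69666171-69666420, minus strand): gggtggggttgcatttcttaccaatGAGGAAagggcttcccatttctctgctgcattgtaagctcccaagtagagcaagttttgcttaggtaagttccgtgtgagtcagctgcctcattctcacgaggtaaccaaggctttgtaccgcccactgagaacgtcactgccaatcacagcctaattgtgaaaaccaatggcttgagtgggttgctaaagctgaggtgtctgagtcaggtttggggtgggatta
Itgam (GRCm38.p6 chr7:128062390-128062639, plus strand): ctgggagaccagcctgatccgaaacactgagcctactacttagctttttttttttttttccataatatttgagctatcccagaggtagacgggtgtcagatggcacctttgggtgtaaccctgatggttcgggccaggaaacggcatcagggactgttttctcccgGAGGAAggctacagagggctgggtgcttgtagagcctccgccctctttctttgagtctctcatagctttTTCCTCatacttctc
The motif stood once before C1qb, at 30 bases from the start, once before Cd68, at 225 bases, and at 2 places before Itgam, at 84 and 15 bases. It was also present in the window of C1qc and absent from that of Lyz2, so that 4 of the 5 windows held it. Of all 32851 promoter windows of that length, 23.3% held it. The match describes letters in the reference and is no measurement of binding.

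All 10 genes were detected in all 9 tumors, and their levels ran from 14.7 FPKM (Itgam in responsive tumor 2) to 6745 FPKM (Lyz2 in responsive tumor 1). FPKM is given per transcript length, so levels can be ordered between genes. By the median over the 9 tumors the order was Lyz2 with Lyz1 (2287 FPKM), C1qb with C1qc (660 FPKM), Tyrobp (416 FPKM), C1qa (407 FPKM), Cd14 (237 FPKM), Cd68 (105 FPKM), Csf1r (95.3 FPKM), Itgam (42.0 FPKM) and Adgre1 (37.0 FPKM). The ranges over the 9 tumors overlapped for all neighbors in this order. Lyz2 with Lyz1, and C1qb with C1qc, take 2 genes together and stand here beside single genes. By name C1qb (397 FPKM) and C1qc (263 FPKM) each had a median below that of C1qa. Cufflinks, the program that estimated the values, gave each a 95% interval, whose half-width was 0.889% to 18.5% of the value over the 88 values with a usable interval. The intervals of Adgre1 in PBS tumor 3 and C1qa in responsive tumor 3 were not usable.

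The tables assign some genes to a row together, and not in every tumor. C1qb and C1qc had a row each in 7 tumors but 1 row together in nonresponsive tumors 1 and 2, so that either name carries the signal of both there. Lyz2 shared its row with its neighbor and close copy Lyz1 in 4 tumors, the 3 PBS tumors and nonresponsive tumor 1. Itgam shared a row with the gene models Gm45700 and Gm49368 in all 9 tumors. C1qb with C1qc, and Lyz1 with Lyz2, are therefore also given as joined values, the shared row where there is one and otherwise the sum of both rows, which make 9 values per tumor with the other 7 genes. Whether the FPKM of a shared row equals the sum of separate rows was not tested.

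No fragment totals were used, so the depth of a library is unknown. Judged from the most frequent ratio between tumors of FPKM below 0.3 at the same gene entries, the relative depth of the 9 libraries was 0.94 to 1.07. Ratios far from equal were left out, so this could not show a large difference in depth. Rows that name no gene held 19.2% to 81.5% of the summed FPKM of a tumor, with the highest share in PBS tumor 1, while rows that name a gene summed to between 651110 and 814452. Tumors were compared on log2(FPKM + 1) with limma over all features (genes with values of their own), with Benjamini-Hochberg adjustment. A lower level can come from fewer cells of a type or from less RNA per cell, and bulk samples cannot tell these apart. The median feature differed between groups by at most 0.11 on the log2 scale as deposited. With each tumor rescaled to the same sum over rows that name a gene it stood at -0.24 for responsive against nonresponsive and at -0.25 for responsive against PBS-treated tumors.

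Of the general macrophage markers, Adgre1 encodes the surface receptor F4/80, the usual marker of mouse macrophages. It stood at 15.2, 37.0 and 30.2 FPKM in PBS tumors 1, 2 and 3. It stood at 77.7, 95.8 and 33.4 FPKM in the nonresponsive tumors and at 62.0, 21.4 and 43.9 FPKM in the responsive tumors. The PBS tumors were all below 2 of the nonresponsive tumors, but nonresponsive tumor 3 and responsive tumor 2 lay among the PBS tumors. In nonresponsive against PBS-treated tumors the log2 difference was 1.26 (SE 0.51, limma p = 0.0509, adjusted p = 0.718, exact permutation p = 0.2), and in responsive against nonresponsive tumors -0.68 (SE 0.54, adjusted p = 0.973).

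Csf1r is the receptor of the macrophage growth factor CSF1. Its levels were 35.1, 95.3 and 89.6 FPKM in the PBS tumors, 195, 155 and 92.4 FPKM in the nonresponsive and 134, 65.7 and 112 FPKM in the responsive tumors. Cd68, a membrane protein of lysosomes and endosomes, stood at 51.8, 110 and 103 FPKM in the PBS tumors, 180, 199 and 82.3 FPKM in the nonresponsive and 199, 69.1 and 105 FPKM in the responsive tumors. For both genes PBS tumor 1 was lowest and the groups overlapped. The log2 difference of antibody-treated (6) from PBS-treated tumors (3) was 0.81 for Csf1r (SE 0.41, limma p = 0.0812, adjusted p = 0.419, exact permutation p = 0.143) and 0.60 for Cd68 (SE 0.43, adjusted p = 0.452).

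Tyrobp encodes DAP12, an adaptor that passes on signals of activating receptors in myeloid and natural killer cells. It stood at 169, 416 and 393 FPKM in the PBS tumors, at 905, 578 and 339 FPKM in the nonresponsive and at 740, 276 and 430 FPKM in the responsive tumors. The log2 difference of antibody-treated from PBS-treated tumors was 0.72 (SE 0.45, adjusted p = 0.424), and groups overlapped in each comparison. Lyz2 encodes lysozyme M, an enzyme that cleaves bacterial cell walls and is made in bulk by macrophages and neutrophils. Lyz2 reached 603, 2287 and 1893 FPKM in the PBS tumors, 4280, 4865 and 1601 FPKM in the nonresponsive and 6745, 1566 and 2361 FPKM in the responsive tumors. Joined with Lyz1, its log2 difference of antibody-treated from PBS-treated tumors was 1.16 (SE 0.60, limma p = 0.0866, adjusted p = 0.396, exact permutation p = 0.19), and it was 0.56 without PBS tumor 1. Lyz1 under its own name differed between responsive and PBS-treated tumors by -6.88 (SE 0.72, adjusted p = 0.044), a comparison in which the PBS values are those of the row shared with Lyz2 and the responsive values are not.

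**Figure D1:**
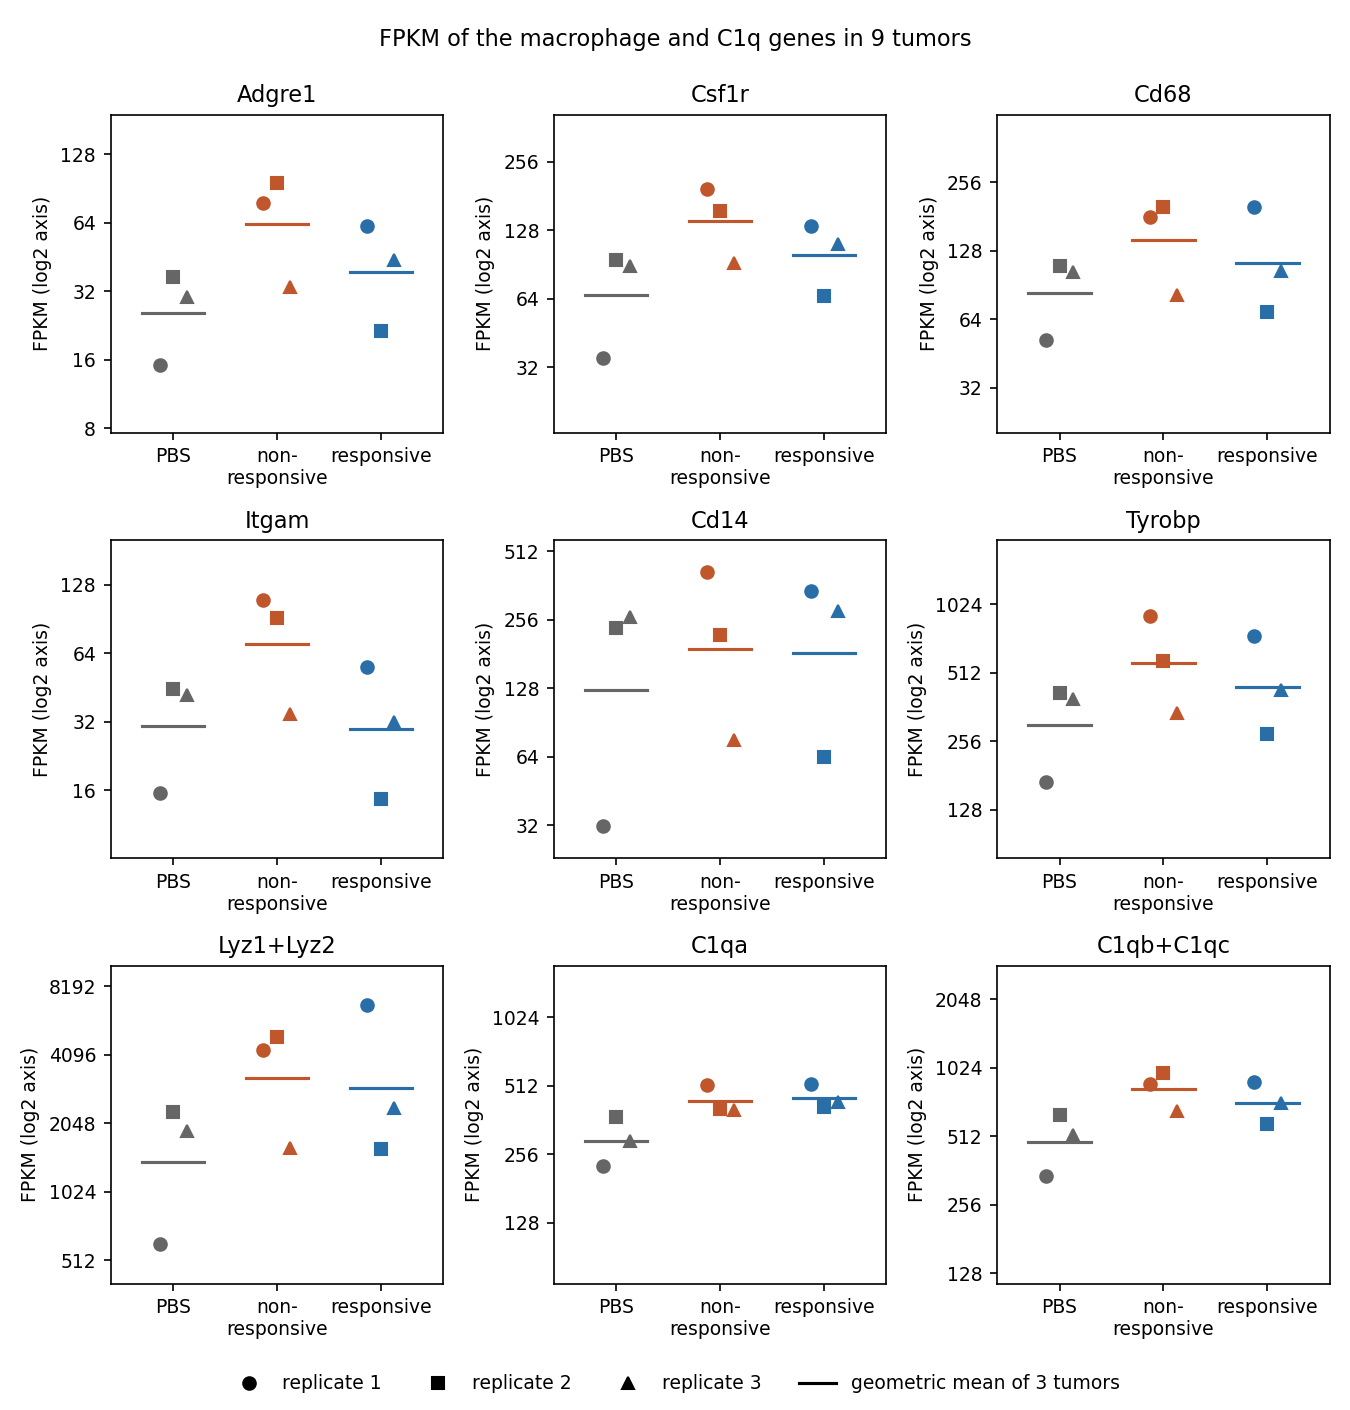
FPKM (log2 axis) of each gene or joined pair in the 9 tumors, by group; points are single tumors with the shape giving the replicate number, and lines are geometric means of 3 tumors. Every panel spans the same fold range, and the points of C1qa lie within 228 to 523 FPKM while those of Cd14 spread over 31.8 to 415 FPKM.

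Itgam encodes CD11b, the alpha chain of an integrin of macrophages, monocytes, neutrophils and some natural killer cells. It stood at 15.5, 44.7 and 42.0 FPKM in the PBS tumors, at 110, 91.3 and 34.5 FPKM in the nonresponsive and at 55.9, 14.7 and 32.0 FPKM in the responsive tumors. Nonresponsive tumors 1 and 2 exceeded every other tumor, and responsive tumor 2 was the lowest of the 9. The difference of responsive from nonresponsive tumors was -1.21 on the log2 scale (SE 0.63, 95% interval -2.76 to 0.34, limma p = 0.105, adjusted p = 0.91, exact permutation p = 0.2), which is the widest gap between these groups among the 9 values. Without nonresponsive tumor 3 it was -1.71 and without responsive tumor 1 -1.65, both at an unadjusted limma p under 0.05 but no adjusted p under 0.05. Between responsive and PBS-treated tumors the difference was -0.05 (SE 0.62), and its sign turned under upper-quartile scaling (0.033).

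Cd14, a coreceptor that hands bacterial lipopolysaccharide to TLR4, varied most. It stood at 31.8, 237 and 264 FPKM in the PBS tumors, at 415, 220 and 76.4 FPKM in the nonresponsive and at 344, 63.7 and 280 FPKM in the responsive tumors. Each group held tumors from both ends of the range. The difference of antibody-treated from PBS-treated tumors was 0.56 (SE 0.84, 95% interval -1.35 to 2.47) with all tumors and -0.41 without PBS tumor 1. Neutrophils also express Cd14, Itgam, Lyz2 and Tyrobp. The summed FPKM of 10 neutrophil markers, led by S100a9 and S100a8, was 178, 2470 and 2149 in the PBS tumors, 5244, 2174 and 561 in the nonresponsive and 2422, 443 and 3450 in the responsive tumors. The 3 tumors with the lowest neutrophil sum were also the 3 with the lowest Cd14. The part of neutrophils in these levels was not tested.

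The C1q genes varied less. C1qa stood at 228, 375 and 294 FPKM in the PBS tumors, at 518, 407 and 402 FPKM in the nonresponsive and at 523, 413 and 434 FPKM in the responsive tumors. All 6 antibody-treated tumors lay above all 3 PBS tumors, and the nonresponsive and responsive tumors overlapped. C1qb and C1qc together stood at 341, 639 and 522 FPKM in the PBS tumors, at 869, 972 and 660 FPKM in the nonresponsive and at 890, 578 and 720 FPKM in the responsive tumors. Here 5 of the 6 antibody-treated tumors lay above the PBS tumors, and responsive tumor 2 fell below PBS tumor 2.

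In the comparison of the 6 antibody-treated with the 3 PBS-treated tumors, C1qa was 1.52-fold higher, at 449 ± 56.3 FPKM (SD, n = 6) against 299 ± 73.6 FPKM (SD, n = 3). The log2 difference was 0.61 (SE 0.21, 95% interval 0.14 to 1.07, limma p = 0.0163, two-sided exact permutation p = 0.0238). That exact p is the smallest that 6 against 3 tumors can give. It did not pass the adjustment over all 14457 features (adjusted p = 0.419). Joined C1qb and C1qc differed by 0.67 (SE 0.26, 95% interval 0.09 to 1.25, limma p = 0.0288, adjusted p = 0.396, exact permutation p = 0.0476). Without PBS tumor 1, the lowest at 8 of the 9 values, the difference of C1qa was 0.43 and that of C1qb with C1qc 0.41, neither at an unadjusted p under 0.05. C1qb with C1qc also lost that threshold without PBS tumor 3 (0.72), nonresponsive tumor 2 (0.60) or responsive tumor 1 (0.62).

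All 10 genes had a positive difference in that comparison, with a median of 0.77 against -0.07 over all features. The median counts C1qb and C1qc by name. By limma 0 of the 10 passed an adjusted p of 0.05, where 0.0346% of all features did, and 2 of 10 (C1qa and C1qc) were higher at an unadjusted p under 0.05, where 5.9% of all features were higher and 4.59% lower. C1qa and C1qc were also the 2 whose groups did not overlap, against 1.04% of all features that were higher without overlap. The value of C1qc in nonresponsive tumors 1 and 2 is that of the row shared with C1qb. Of the neutrophil markers 10 of 10 had a positive difference in the same comparison, with a median of 0.83, and 4 (Mpo, Elane, Camp and Ngp) were higher at an unadjusted p under 0.05. Ptprc, which encodes CD45 of all leukocytes, differed by 0.57 (SE 0.43, adjusted p = 0.464). The part of neutrophils and of all leukocytes in these differences was not tested. The count at an unadjusted p under 0.05 was 0 without PBS tumor 1, 5 without responsive tumor 2, and 1 without PBS tumor 3, nonresponsive tumor 1, nonresponsive tumor 2 or responsive tumor 1. A linear model per gene without the moderation of limma gave 1.

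**Figure D2:**
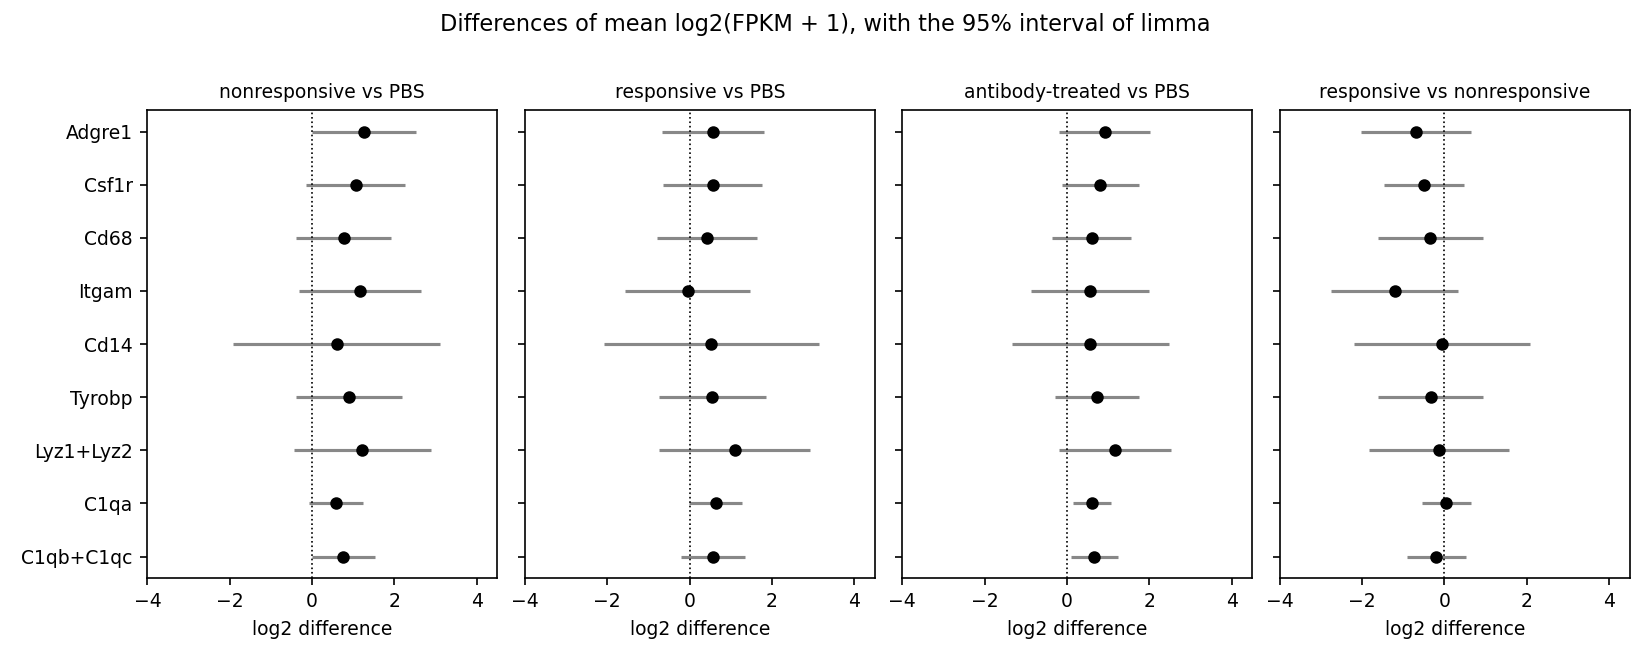
Difference of mean log2(FPKM + 1) (points) with the 95% interval of limma (lines) for each gene or joined pair in 4 comparisons; the dotted line marks no difference. The intervals of C1qa (0.14 to 1.07) and of C1qb with C1qc (0.09 to 1.25) lie above 0 in antibody-treated against PBS-treated tumors, and in responsive against nonresponsive tumors every interval spans 0.

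In nonresponsive against PBS-treated tumors all 10 differences were positive, with a median of 1.11 against -0.06 over all features. That median counts C1qb and C1qc by name, although both hold the shared row in 2 of the nonresponsive tumors. None of the 10 passed an adjusted p of 0.05 in limma (0.0798% of all features did), and 2 of 10, C1qb and C1qc, were higher at an unadjusted p under 0.05 (1.51% of all features were higher and 1.71% lower). Their differences by name were 1.24 (SE 0.44, limma p = 0.0306) and 1.66 (SE 0.59, limma p = 0.0317), both with an exact permutation p of 0.1, in which the shared row stands for each gene in 2 of the 3 nonresponsive tumors. With the joined value in every tumor, the pair differed by 0.76 (SE 0.32, 95% interval -0.01 to 1.53, limma p = 0.0517, exact permutation p = 0.1), at 834 ± 159 FPKM in nonresponsive and 500 ± 150 FPKM in PBS-treated tumors (SD, n = 3 each). C1qa differed by 0.58 (SE 0.27, 95% interval -0.08 to 1.25). For C1qa, C1qb and C1qc the groups did not overlap, which held for 3.23% of all features in the direction of higher levels, and the exact permutation p was 0.1, the smallest that 3 against 3 allows. The count of 2 genes became 0 without PBS tumor 1, PBS tumor 3, nonresponsive tumor 1 or nonresponsive tumor 2. It became 4 without PBS tumor 2 and 6 without nonresponsive tumor 3, and was 0 in the model without moderation.

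In responsive against PBS-treated tumors, which shares its controls with the comparisons above, 9 of 10 differences were positive with a median of 0.56 against -0.11 over all features, and Itgam was the exception. By limma 0 of 10 genes passed an adjusted p of 0.05 (0.231% of all features did) and 0 of 10 an unadjusted p under 0.05 (8.48% of all features were higher and 8.76% lower), and the model without moderation also gave 0. Without PBS tumor 2 the second count was 2. C1qa was 1.55-fold higher, with a log2 difference of 0.63 (SE 0.26, 95% interval -0.02 to 1.28, limma p = 0.0554, adjusted p = 0.292, exact permutation p = 0.1). C1qa and C1qc had no overlap between the groups, as had 11.6% of all features in that direction.

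In responsive against nonresponsive tumors 9 of 10 differences were negative, with a median of -0.42 against -0.07 over all features. This median, too, counts C1qb and C1qc by name, with the shared row in 2 nonresponsive tumors. None passed an adjusted p of 0.05 in limma (0.116% of all features did), and 0 of 10 passed an unadjusted p under 0.05, also in the model without moderation (4.05% of all features were higher and 1.44% lower). No gene was without overlap, while 4.75% of all features were lower and 5.78% higher without overlap. C1qa stood closest to equal, with a difference of 0.05 (SE 0.25, 95% interval -0.56 to 0.65) that turned to -0.15 with each tumor rescaled to the same sum over rows that name a gene. By name C1qb and C1qc differed by -0.76 and -0.97, and by the joined value by -0.20 (SE 0.29, 95% interval -0.91 to 0.51). Without nonresponsive tumor 3, 3 genes passed an unadjusted p under 0.05, and without responsive tumor 1, 1 did.

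**Figure D3:**
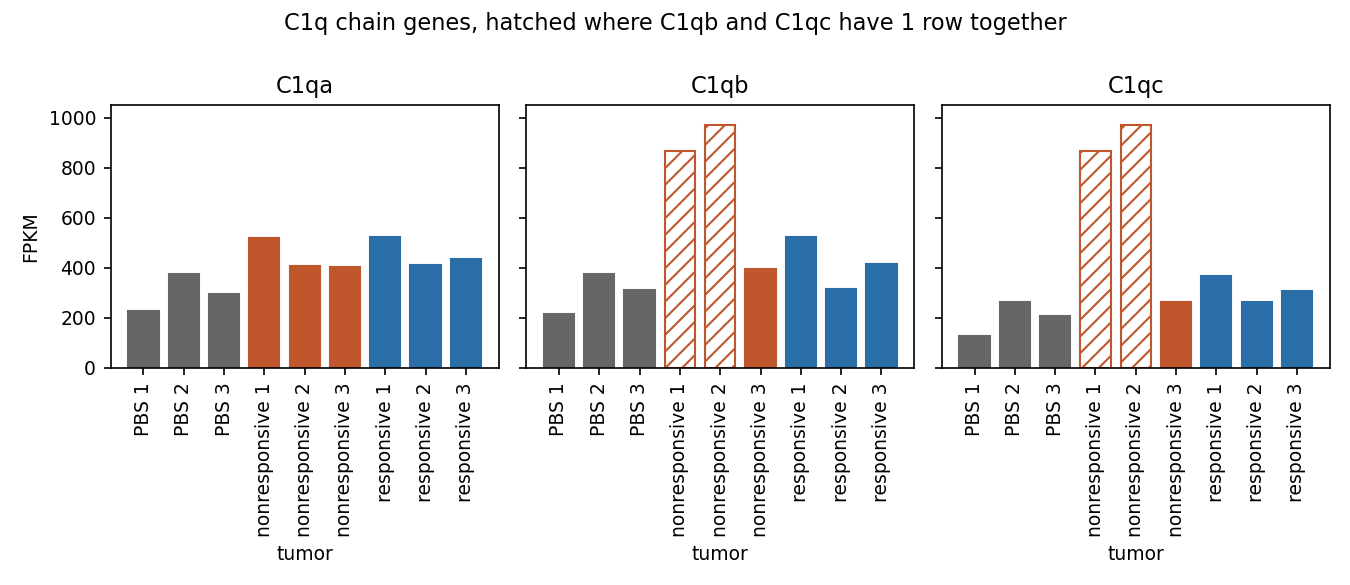
FPKM of C1qa, C1qb and C1qc in each tumor, with bars from 0 colored by group; hatched bars are the 2 tumors in which C1qb and C1qc have 1 row together and show that shared row. The hatched values of 869 and 972 FPKM stand above all other bars, whereas C1qa in the same tumors is at 518 and 407 FPKM.

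In the 7 tumors with separate rows the 3 chains kept a narrow proportion. C1qb was 0.766 to 1.06 times C1qa, and C1qc was 0.556 to 0.709 times C1qa. The joined value of C1qb and C1qc over C1qa lay between 1.40 and 1.77 in 8 tumors, nonresponsive tumor 1 among them, and at 2.39 in nonresponsive tumor 2. The genes C1qa, C1qc and C1qb are neighbors in the RefSeq annotation on mouse chromosome 4.

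The tumors differed together at these genes. PBS tumor 1 was the lowest of the 9 at 8 of the 9 values, with Itgam as the exception. Nonresponsive tumor 1 and responsive tumor 1 were among the 3 highest at 9 of 9 values, and nonresponsive tumor 2 at 7 of 9. Responsive tumor 2 was among the 3 lowest at 8 of 9, C1qa being the exception. The span from the lowest to the highest tumor was 2.30-fold for C1qa and 2.85-fold for C1qb with C1qc, against 3.85-fold for Cd68, 6.32-fold for Adgre1, 7.50-fold for Itgam, 11.2-fold for Lyz1 with Lyz2 and 13-fold for Cd14. The SD within groups on the log2 scale was 0.26 for C1qa and 1.43 for Cd14.

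**Figure D4:**
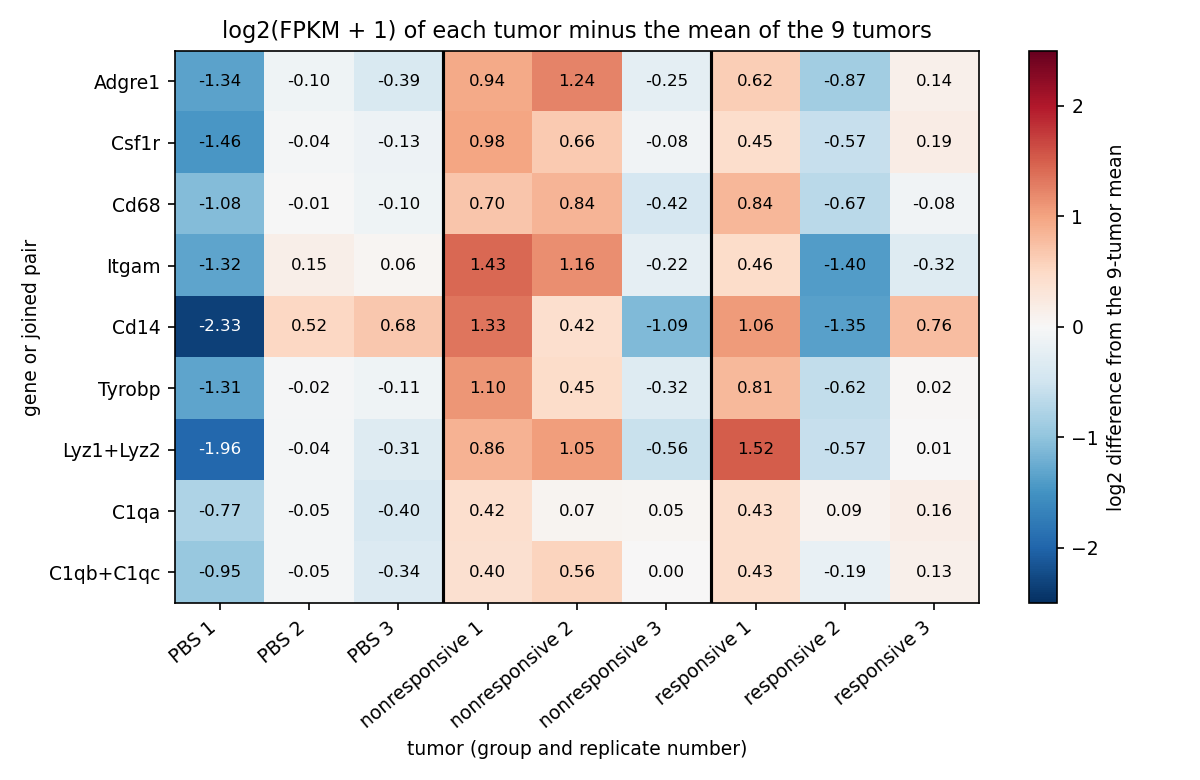
Difference of log2(FPKM + 1) in each tumor (columns, with black lines between the groups) from the mean of the 9 tumors, for each gene or joined pair (rows). PBS tumor 1 is below the mean throughout, and the rows of C1qa and C1qb with C1qc are paler than those of Cd14 and Lyz1 with Lyz2, whose span is 13-fold and 11.2-fold.

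Ratios within a tumor do not depend on how that tumor was scaled. Of the 18 ratios computed in each of the 4 comparisons, 0 had an adjusted p under 0.05, and 3 against 3 tumors cannot give an exact permutation p below 0.1. Itgam stands in these ratios for the row it shares with Gm45700 and Gm49368. Itgam over Adgre1 was 1.02, 1.21 and 1.39 in the PBS tumors and 1.41, 0.953 and 1.03 in the nonresponsive tumors. It was 0.901, 0.685 and 0.729 in the responsive tumors, below all 6 others. The Cufflinks intervals were not carried into the ratios, so narrow gaps such as 0.901 to 0.953 were not set against them. The log2 difference of responsive from nonresponsive tumors was -0.54 (exact permutation p = 0.1, adjusted p = 0.4) and from PBS-treated tumors -0.64 (exact permutation p = 0.1, adjusted p = 1), and it ranged from -0.66 to -0.37 and from -0.76 to -0.54 when single tumors were left out. Itgam over Ptprc was 1.08, 1.02 and 0.712 in nonresponsive against 0.672, 0.393 and 0.346 in responsive tumors, again without overlap (exact permutation p = 0.1, adjusted p = 0.4). No other ratio of the 18 was without overlap between responsive and nonresponsive tumors. Between responsive and PBS tumors Itgam over Ptprc overlapped (exact permutation p = 0.3).

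Cd68 over Adgre1 was 2.32, 2.08 and 2.47 in the nonresponsive tumors and 3.41, 2.97 and 3.43 in the PBS tumors, which did not overlap. The log2 difference was -0.52 (exact permutation p = 0.1, adjusted p = 0.45), and the responsive tumors, at 3.21, 3.23 and 2.38, lay across both. Adgre1 over Ptprc was 0.761, 1.07 and 0.689 in the nonresponsive against 0.616, 0.476 and 0.551 in the PBS tumors (exact permutation p = 0.1, adjusted p = 0.45). Csf1r over Ptprc and C1qc over Ptprc were also higher without overlap in the nonresponsive tumors (exact permutation p = 0.1 each). For C1qc this includes the row shared with C1qb in 2 of those tumors. The remaining ratios overlapped between nonresponsive and PBS tumors. C1qa over Adgre1 ranged from 4.24 in nonresponsive tumor 2 to 19.3 in responsive tumor 2, with overlap in each comparison.

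**Figure D5:**
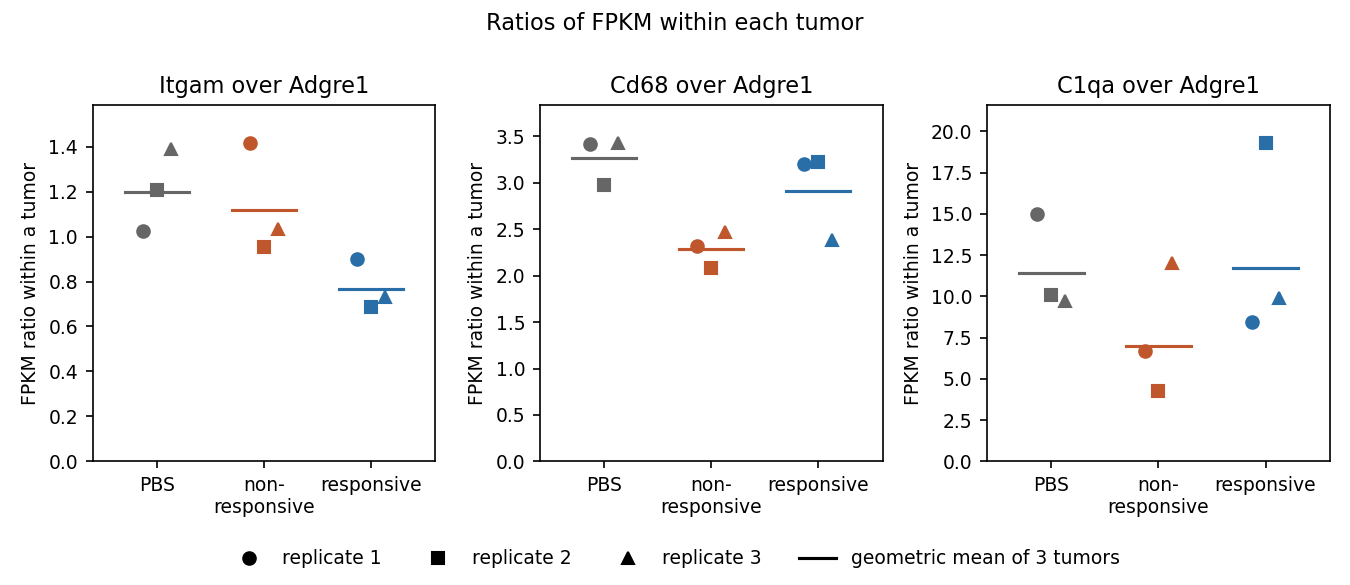
Ratios of FPKM within each tumor (linear axes from 0) by group; points are single tumors with the shape giving the replicate number, and lines are geometric means of 3 tumors. Itgam over Adgre1 is at most 0.901 in the responsive tumors and at least 0.953 elsewhere, and Cd68 over Adgre1 is at most 2.47 in the nonresponsive and at least 2.97 in the PBS tumors.

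As a description of likeness over the 9 tumors, the features closest to Adgre1 among 10409 were Nrros (Pearson r 0.994), Clec4a1, Ms4a7, Rassf4 and Tlr7. Of the other 9 genes taken by name, C1qb had the highest r with Adgre1 (0.965, rank 35). Cd68 (0.962, rank 42), Csf1r (0.952, rank 85), Itgam (0.932) and C1qc (0.927) followed. C1qb and C1qc hold their shared row in nonresponsive tumors 1 and 2, the tumors with the highest Adgre1. Likeness was not computed for the joined value, so the places of C1qb and C1qc in this order may rest on that row. Closest to Lyz2 were the lysosomal protease gene Ctsb (0.992), Mylip, the cholesterol exporter gene Abca1, the fatty acid binding protein gene Fabp5 and Smpdl3a. C1qa had other neighbors, namely Ttc7 (0.963), Prxl2b, Med15, a row of S100a2, S100a3, S100a4 and Gm42674, and Gstp2. Adgre1 stood at rank 1446 from C1qa (0.734). All of these values rest on the same 9 libraries.

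Among the genes that act with these products, the classical complement pathway and its regulators stood highest against the controls. In antibody-treated against PBS-treated tumors 13 of 13 tested features had a positive difference, with a median of 1.00 against -0.07 over all features, and 6 (C1ra, C1rb, C2, C3, C4bp and Cd59a) were higher at an unadjusted p under 0.05, against the 5.9% of all features that were higher. C1ra and C1rb had 1 row together in nonresponsive tumor 3 and responsive tumors 2 and 3 but in no PBS tumor. In the antibody-treated tumors with a row of its own C1rb stood at 14.6, 16.1 and 15.6 FPKM, and in the PBS tumors at 3.86, 13 and 9.90 FPKM. C1s1 and C1s2 had equal values in nonresponsive tumors 2 and 3 and responsive tumor 2 but in no PBS tumor. In the other antibody-treated tumors C1s2 stood at 0.60, 0.63 and 1.19 FPKM, and in the PBS tumors at 0.89, 1.65 and 0 FPKM. C2 shared its row with Cfb and Gm20547 in all tumors. C3, the central component, was at 432 ± 294 FPKM in PBS-treated, 822 ± 269 FPKM in nonresponsive and 1176 ± 504 FPKM in responsive tumors (SD, n = 3 each). Clu (clusterin) was at 442 ± 170, 453 ± 148 and 814 ± 130 FPKM, and Serping1, the inhibitor of the C1 proteases, at 363 ± 175, 530 ± 98.1 and 508 ± 87.4 FPKM. None of the 13 passed an adjusted p of 0.05. Hepatocytes secrete most of these proteins, and 8 hepatocyte markers (such as Alb, Serpina1a and Apoa1) summed to 337, 2983 and 4271 FPKM in the PBS tumors, 10246, 4432 and 2964 FPKM in the nonresponsive and 16023, 9205 and 11734 FPKM in the responsive tumors. Their part in the complement values was not tested.

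The 5 Kupffer cell markers also had positive differences in antibody-treated against PBS-treated tumors, 5 of 5 with a median of 1.80, and 4 of them were higher at an unadjusted p under 0.05 (5.9% of all features). Their summed FPKM was 4.52, 64.0 and 118 in the PBS tumors, 216, 120 and 85.3 in the nonresponsive and 303, 119 and 222 in the responsive tumors, led by Cd5l, Clec4f and Vsig4. PBS tumor 1, the tumor with the lowest C1qa, had the lowest sum, with Timd4 at 0.263 FPKM. Kupffer cells are a source of C1q, and their part in the C1q levels was not tested. Of the C1q-binding proteins, 4 of 6 tested had a positive difference and 0 an unadjusted p under 0.05. Calr (calreticulin) led that list at 386 ± 15.3 FPKM in PBS-treated, 428 ± 24.5 FPKM in nonresponsive and 481 ± 9.57 FPKM in responsive tumors, without overlap between antibody-treated and PBS-treated tumors. It was followed by C1qbp and Lrp1.

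Of 14 ligands of CSF1R and macrophage lineage factors tested, 12 had a positive difference in antibody-treated against PBS-treated tumors and 1, Cebpa, was higher at an unadjusted p under 0.05 (5.9% of all features). Cebpa stood at 32.0 ± 14.7 FPKM in PBS-treated, 56.5 ± 31.4 FPKM in nonresponsive and 82.0 ± 36.6 FPKM in responsive tumors (SD, n = 3 each). The part of hepatocytes in its level was not tested. In responsive against nonresponsive tumors 13 of 14 were negative, with a median of -0.42, and Cebpa was the exception. Runx1, a lineage factor of blood cells, was lower there at an unadjusted p under 0.05 (1.44% of all features). Cebpb, Spi1 and Csf2ra were the most abundant, and Spi1 stood at 53.5 ± 18.6 FPKM in PBS-treated, 95 ± 46.0 FPKM in nonresponsive and 67.8 ± 14.8 FPKM in responsive tumors. The Tyrobp-coupled receptors and kinases were led by Lat2, Sirpb1a (in a row shared with Sirpb1b and Sirpb1c) and Trem2. Of these, 11 of 13 had a positive difference in antibody-treated against PBS-treated tumors. In responsive against nonresponsive tumors 11 of 13 had a negative difference, with 0 at an unadjusted p under 0.05 in either comparison. Lat2 went the other way in both. It stood at 31.9 and 22.7 FPKM in nonresponsive tumors 1 and 2 and at 30.6 FPKM in responsive tumor 1. In the other tumors it stood at 158 to 218 FPKM. Whether the row of Lat2 held another gene in some tumors was not tested.

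The lysosomal proteins of phagocytes, led by Psap, Ctsb and Ctsd (in a row shared with Ifitm10), gave 13 of 15 positive differences in antibody-treated against PBS-treated tumors (median 0.51) and 0 at an unadjusted p under 0.05. The Cd14 and TLR4 pathway, led by Nfkbia, Ticam2 (in a row shared with Tmed7) and Myd88, gave 9 of 14 (median 0.17) and also 0. Of 7 adhesion GPCR relatives of Adgre1, led by Adgre5, Adgrl2 and Adgrl4, 4 were positive (median 0.06) and 0 passed an unadjusted p under 0.05. Of the 11 integrin partners and ligands of Itgam 8 were positive and 3 were higher at an unadjusted p under 0.05 (5.9% of all features). These were Fga, Fgb and Fgg, the fibrinogen chains that hepatocytes make, of which Fga and Fgg had 1 row together in responsive tumor 3.

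Other leukocyte lists did not follow one pattern. The monocyte list, led by Ly6c2 (in a row shared with Ly6c1 in all tumors), Plac8 and Ccr2, had 5 of 6 negative differences in responsive against nonresponsive tumors (median -0.90), and Plac8 and Vcan were lower at an unadjusted p under 0.05 (1.44% of all features). Of 5 T cell markers, led by Cd3g, Cd3e and Cd8a, 5 had a positive difference in that comparison and 1 (Cd3d) was higher at an unadjusted p under 0.05 (4.05% of all features). In these lists 0 features passed an adjusted p of 0.05. Ptprc stood at 24.6, 77.9 and 54.8 FPKM in the PBS tumors, 102, 89.3 and 48.4 FPKM in the nonresponsive and 83.1, 37.3 and 92.7 FPKM in the responsive tumors, again lowest in PBS tumor 1. For natural killer, dendritic, endothelial and fibroblast markers the medians in antibody-treated against PBS-treated tumors were -0.22, 0.03, 0.45 and 0.23.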

How the data were processed

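Tumors of 9 mice in 3 groups were analysed. The authors deposited FPKM per gene, estimated by Cufflinks separately in each tumor without pooling. The submitters' processing notes name Bowtie2 2.2.4, TopHat2 2.1.1 and a genome build that the coordinates of the files do not match, so that no coordinates of the files are given. The deposited table of Cuffdiff comparisons, with fold changes and p-values between groups, was not used.

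The FPKM of all rows naming a symbol were summed. Of 52176 symbols 13 with a failed estimate were left out, and symbols with equal values counted as 1 of 25625 features. Features with FPKM of at least 1 in at least 3 tumors of a comparison were log2-transformed after adding 1 FPKM and tested by limma (version 3.58.1, R 4.3.3, lmFit then eBayes with trend), on the 6 tumors compared or on all 9 for antibody-treated against PBS-treated. The pseudocount understates changes of low genes. The steps were tested on simulated data. Exact permutation tests were two-sided (scipy). P-values rest on the spread between these mice, and those of limma also draw on the variance of all features. The treated groups are extremes of tumor size, so their spread is not that of all treated mice. Comparisons against PBS share their controls.

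The genes and the 19 lists were chosen with earlier results of these data known. The result of 1 marker list is not reported here. All 10 genes are named. Of each pathway and marker list, the 3 with the highest mean FPKM and any with an adjusted p under 0.05 were to be named, and further list genes were named after their values were seen. Alternatives were another pseudocount, filter, scaling, joining of rows, test, sample set, replicate block and leaving out each tumor.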

Additional observations from a re-analysis of the deposited data

Results flagged for a closer look

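Of 33 sets of values (levels and ratios of the genes over the 6 antibody-treated tumors) examined for a single distant tumor, 1 stood out. The ratio of C1qb with C1qc to C1qa in nonresponsive tumor 2 was 2.39, against 1.40 to 1.70 in the other 5 antibody-treated tumors, and its gap to the next tumor was 0.698 of the whole range, above the 95% critical value for 6 samples (Dixon). Chance alone gives such a gap in about 5% of sets. That tumor is 1 of the 2 in which C1qb and C1qc share a row, and nonresponsive tumor 1, the other, had a ratio of 1.68.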

How the results depend on the processing

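No gene of the 10 passed an adjusted p of 0.05 under any alternative in any comparison, and the median difference over the 10 kept its sign in every alternative (from -0.77 to -0.10 for responsive against nonresponsive and from 0.39 to 1.03 for antibody-treated against PBS-treated tumors). The number of all features with an adjusted p under 0.05 was 16 in responsive against nonresponsive tumors, but 10 with no filter, 8 with the filter at 5 FPKM, 7 with a test without moderation and 8 with joined rows. It was 32 in responsive against PBS-treated tumors, but 16 with all 9 tumors in 1 fit, 20 with a test without moderation and 19 with joined rows. It was 11 in nonresponsive against PBS-treated tumors, but 5 with no filter, a test without moderation or joined rows and 6 with 9 tumors in 1 fit. It was 5 in antibody-treated against PBS-treated tumors, but 3 with a pseudocount of 0.1, 11 with no filter, 2 with a test without moderation and 1 with joined rows. Leaving out single tumors gave 0 to 32, 7 to 49, 2 to 30 and 5 to 18 in these comparisons. The cause of these shifts was not tested.

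The deviations of same-numbered tumors from their group means correlated from -0.34 to 0.41, and the main fits did not pair tumors by number. The value of nonresponsive tumor 1 with responsive tumor 1 (0.41) was the highest between any tumors of different groups. With 3 tumors per group these correlations cannot exclude a pairing by number. With a replicate block the features past an adjusted p of 0.05 numbered 1, 0, 0 and 3 in these comparisons, and the genes of the 10 at an unadjusted p under 0.05 were 1 against PBS in the nonresponsive and 1 in the antibody-treated tumors.

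That count was 0 in responsive against PBS-treated tumors, but 1 with upper-quartile scaling, 9 tumors in 1 fit or joined rows. It was 2 in nonresponsive against PBS-treated tumors, but 4 with 9 tumors in 1 fit, 0 with a test without moderation and 1 with joined rows. It was 2 in antibody-treated against PBS-treated tumors, but 1 with no filter, either rescaling or a test without moderation. Leaving out single tumors gave 0 to 3, 0 to 2, 0 to 6 and 0 to 5.

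C1qa in responsive against nonresponsive tumors turned to -0.15 with rescaling and to -0.14 with rescaling without the hepatocyte list, and Itgam in responsive against PBS-treated tumors to 0.033 with upper-quartile scaling. Leaving out single tumors, added for joined pairs and ratios after the data were seen, turned the sign in responsive against nonresponsive tumors of Lyz2 (-0.74 to 0.31), Lyz1 with Lyz2 (-0.73 to 0.31), C1qa (-0.054 to 0.17), Cd14 (-0.72 to 0.69), Tyrobp (-0.71 to 0.0042) and Cd68 (-0.75 to 0.0072). Against PBS it turned Itgam (-0.52 to 0.44) and Cd14 (-0.45 to 1.29) in responsive, Cd14 in nonresponsive (-0.38 to 1.25) and Cd14 in antibody-treated tumors (-0.41 to 1.09). Depth is unknown, so the precision of single FPKM values rests on the Cufflinks intervals.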
